A study of Mus musculus with 6 samples.

Results

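The genes described here are 40 members of the machinery that folds proteins in the endoplasmic reticulum (ER) and disposes of those that fail to fold: chaperones, disulfide isomerases and oxidases, prolyl isomerases, ER degradation factors, a pair of translocon subunits, and the sensors that control them. They were chosen by gene symbol, from a list drawn up for this machinery with earlier results of these data known, and all 40 symbols were present among the 24346 symbols of the deposited tables. Of the 40, 39 had a mean of at least 1 FPKM (fragments per kilobase of transcript, scaled to the number of mapped fragments) over the 6 libraries and were tested among 11079 genes. Derl3, a member of the Derlin family of ER membrane proteins, was listed at 0 in all 6 libraries and was not tested.

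Proteins of the secretory pathway enter the ER through the Sec61 channel, are bound by chaperones such as BiP (the product of Hspa5), acquire disulfide bonds from oxidoreductases, and are sent back to the cytosol for degradation when folding fails. When unfolded proteins accumulate, the membrane sensors IRE1 (Ern1), ATF6 and PERK start the unfolded protein response, in which the transcription factors XBP1, ATF6 and ATF4 raise the genes of this machinery. ATF6 binds ER stress response elements (ERSE) in the promoters of chaperone genes, and BiP is the usual readout of the response in cultured cells.

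The libraries came from 4T1 cells, a mouse mammary carcinoma line. The groups were cells with the hairpin named shRNA3 against the long noncoding RNA AU021063, cells with the hairpin named shRNA1 against the same RNA, and WT cells, which had been mock transfected. Each group had 2 libraries, no culture with a non-targeting hairpin is named in the labels, and no treatment that induces ER stress is named for any group. Whether the 2 libraries of each group stem from different cultures is not recorded in the labels, and the spread on which the p-values rest may be technical. Nor do the labels say if a hairpin group is a single clone or a pool of cells.

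The values of a library summed to 560862 to 604022 FPKM, 10998 to 11106 symbols reached 1 FPKM, and relative depth was 86.8% to 105% of that of WT replicate 1. Between the 2 libraries of each group the median difference per gene was 4.32% in shRNA3, 4.40% in shRNA1 and 4.47% in WT over 6943 genes. AU021063 itself was at 0.785 and 0 FPKM in shRNA3, at 1.04 and 0.572 FPKM in shRNA1, and at 1.82 and 1.67 FPKM in WT. The epithelial keratins Krt8 and Krt18 were abundant, but Epcam and Cdh1, which define most epithelial cells, reached only 2.04 to 5.14 and 1.22 to 1.83 FPKM. Of 5 leukocyte markers 4 were at 0 in all libraries, and the endothelial and adipocyte sums stayed at or below 0.194 FPKM. The summed epithelial markers were at 747 to 749.8 FPKM in shRNA3, 1041 to 1110 FPKM in shRNA1 and 931 to 964 FPKM in WT. Krt8 and Krt18 make up nearly all of that sum, while Krt19 was at 12.4 and 13.2 FPKM in shRNA3, 19.8 and 20.4 FPKM in shRNA1 and 1.79 and 1.33 FPKM in WT, and Epcam was above WT in all 4 knockdown libraries. The fibroblast markers summed to 59.7 to 63.7 FPKM in shRNA3, 61.3 to 61.96 FPKM in shRNA1 and 70.05 to 70.8 FPKM in WT. Pdgfra carried the lower sums, at 37.9 and 39.7 FPKM in shRNA3, 41.9 and 41.8 FPKM in shRNA1 and 49.96 and 49.7 FPKM in WT, while Col1a1 was higher in the knockdown libraries, at 1.79 and 2.175 FPKM in shRNA3, 1.43 and 1.57 FPKM in shRNA1 and 0.721 and 0.743 FPKM in WT. Their part in the results below was not tested, and in bulk libraries fewer cells of a type and less RNA per cell cannot be told apart.

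The promoters of the genes on which the results turn are shown first, because 12 of the 35 members with a promoter window carry an ER stress response element in it. The windows were taken from RefSeq on GRCm38.p6 and span 250 bases before to 50 bases after a gene's start. Hyou1, Manf, Sil1, Atf6 and Derl1 had no window. The elements searched, on both strands, were ERSE (CCAAT, 9 bases of any kind, CCACG), ERSE-II (ATTGG, 1 base of any kind, CCACG), the core TGACGTGG of the unfolded protein response element bound by ATF6 and XBP1, and the bare ACGTG, which lies inside that core. Shown are Hspa5 (chr2:34771840-34772139, plus strand), Hsp90b1 (chr10:86705395-86705694, minus strand), Creld2 (chr15:88819396-88819695, plus strand), Ero1lb (chr13:12565633-12565932, plus strand), Herpud1 (chr8:94386179-94386478, plus strand), Dnajb11 (chr16:22857595-22857894, plus strand) and Ero1l (chr14:45318523-45318822, minus strand), each 5′ to 3′ on the strand of the gene. Capitals mark ERSE in the first 4, ERSE-II in Herpud1 and Dnajb11, and the single ACGTG, read on the opposite strand, in Ero1l, whose window held none of the longer elements.
Hspa5: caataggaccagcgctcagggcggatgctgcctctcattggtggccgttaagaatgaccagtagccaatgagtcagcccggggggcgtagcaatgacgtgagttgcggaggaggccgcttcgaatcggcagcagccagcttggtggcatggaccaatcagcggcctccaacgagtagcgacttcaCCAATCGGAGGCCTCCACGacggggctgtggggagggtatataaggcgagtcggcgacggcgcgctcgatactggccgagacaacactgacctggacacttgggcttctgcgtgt
Hsp90b1: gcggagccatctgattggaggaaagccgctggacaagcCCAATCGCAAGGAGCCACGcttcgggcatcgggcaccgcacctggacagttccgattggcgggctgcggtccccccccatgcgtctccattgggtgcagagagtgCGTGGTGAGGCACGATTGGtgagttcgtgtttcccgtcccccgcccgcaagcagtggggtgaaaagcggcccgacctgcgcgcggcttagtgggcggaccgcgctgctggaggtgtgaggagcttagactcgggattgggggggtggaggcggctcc
Creld2: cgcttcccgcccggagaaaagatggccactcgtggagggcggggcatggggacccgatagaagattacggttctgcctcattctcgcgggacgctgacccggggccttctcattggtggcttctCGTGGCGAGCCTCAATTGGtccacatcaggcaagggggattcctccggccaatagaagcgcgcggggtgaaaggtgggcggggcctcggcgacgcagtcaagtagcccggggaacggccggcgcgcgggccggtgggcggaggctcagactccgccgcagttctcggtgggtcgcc
Ero1lb: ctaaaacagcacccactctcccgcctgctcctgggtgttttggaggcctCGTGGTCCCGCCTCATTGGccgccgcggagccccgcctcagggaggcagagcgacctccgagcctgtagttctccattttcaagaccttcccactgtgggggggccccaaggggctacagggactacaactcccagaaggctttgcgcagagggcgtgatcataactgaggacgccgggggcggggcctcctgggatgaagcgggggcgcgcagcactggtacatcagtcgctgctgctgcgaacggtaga
Herpud1: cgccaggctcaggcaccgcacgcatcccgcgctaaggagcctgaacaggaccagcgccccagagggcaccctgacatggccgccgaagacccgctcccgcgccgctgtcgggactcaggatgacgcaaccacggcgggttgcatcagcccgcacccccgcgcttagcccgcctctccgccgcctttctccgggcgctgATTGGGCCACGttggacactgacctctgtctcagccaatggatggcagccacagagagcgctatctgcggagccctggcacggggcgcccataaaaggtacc
Dnajb11: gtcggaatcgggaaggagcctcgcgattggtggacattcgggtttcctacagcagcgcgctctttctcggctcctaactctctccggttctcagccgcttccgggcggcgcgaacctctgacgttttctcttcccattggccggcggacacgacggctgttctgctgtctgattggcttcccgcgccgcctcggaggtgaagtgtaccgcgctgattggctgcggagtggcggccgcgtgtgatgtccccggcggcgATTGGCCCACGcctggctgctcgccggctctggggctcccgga
Ero1l: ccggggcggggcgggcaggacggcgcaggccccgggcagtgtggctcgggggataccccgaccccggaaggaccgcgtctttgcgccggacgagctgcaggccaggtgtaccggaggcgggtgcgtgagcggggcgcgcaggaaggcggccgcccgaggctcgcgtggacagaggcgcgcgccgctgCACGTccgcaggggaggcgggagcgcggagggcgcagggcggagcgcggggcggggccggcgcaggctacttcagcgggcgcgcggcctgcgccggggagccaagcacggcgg

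Some members had several windows, so shares of members are given with the number of their 42 windows, the unit counted for all genes. ERSE was present in 10 of 35 members (28.6%) and in 10 of the 42 windows, against 39 of 32851 windows of all genes (0.119%). The 10 were Hspa5, Hsp90b1 with 2 copies, Dnajc3, Calr, Canx, Pdia6, Creld2, Ero1lb, Syvn1 and the unexpressed Derl3. In Hspa5 the element lay at -65 to -47 from the start, in Creld2 at -126 to -108 and in Ero1lb at -201 to -183. ERSE-II was present in Herpud1, at -52 to -42, and in Dnajb11, at 7 to 17. That is 5.71% of the members and 2 of the 42 windows, against 0.0365% of all windows. The TGACGTGG core was in Txndc5 and Txndc11, also 5.71% of members and 2 of the 42 windows, against 0.676% of all windows. The bare ACGTG was in 17 of 35 members (48.6%) and 18 of the 42 windows, against 19.6% of all windows. A match is a run of letters and not a measured binding site.

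Averaged over both hairpins, 22 of the 39 members fell and 5 rose against WT, where over all 11079 genes 25.9% were called lower and 24.1% higher (limma, Benjamini-Hochberg adjusted p under 0.05). With shRNA1, 19 members fell and 4 rose, against 18.4% lower and 17.6% higher among all genes. With shRNA3, 18 fell and 7 rose, against 27.8% and 27.4%. Members called lower over both hairpins include some called with 1 hairpin alone, such as Hspa5 and Herpud1 with shRNA1 and Sec61b and Dnajc10 with shRNA3. The median log2 change of the members was -0.16 over both hairpins, -0.16 with shRNA1 and -0.11 with shRNA3, and that of all genes was -0.01 in each. All log2 changes were computed from log2(FPKM + 1), where 1 is a pseudocount that shrinks the changes of weakly expressed genes. The comparisons of each hairpin with WT share the WT libraries. shRNA3 against shRNA1, which does not use them, had 16 members higher and 8 lower with shRNA3, against 22% and 20.5% of all genes, with a median log2 difference of 0.12 for the members and 0.01 for all genes. Most of these counts were smaller with a single library left out, which leaves its group with 1. The counts of all genes called were also smaller in every comparison, whichever library was left out, so the decline is not particular to the members. With the 4 knockdown libraries fitted as 1 group, whose spread then includes the difference between the hairpins, 5 members were called lower and 2 higher. Among all 11079 genes that fit called 715 lower and 798 higher. Scaling the libraries to the same total gave 26 lower and 3 higher over both hairpins, against 3723 and 1944 of all 11079 genes. It lowered the share of higher calls among all called genes to 34.3%, against 48.2% as deposited.

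**Figure D1:**
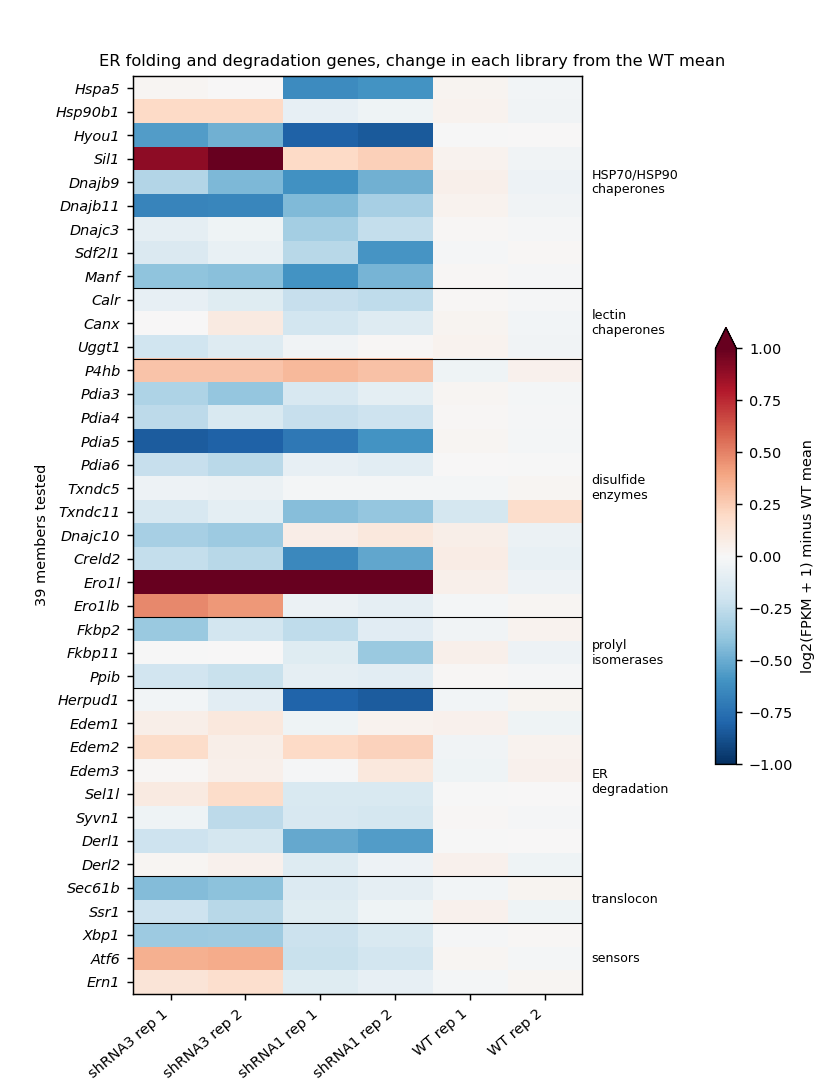
Heat map of 39 members (rows, grouped by role) in the 6 libraries (columns); colour gives log2(FPKM + 1) minus the WT mean, from -1 to 1, and darker red at the top of the bar stands for values above 1. Ero1l is dark red in all 4 knockdown libraries, while Hspa5 and Herpud1 are deep blue in the shRNA1 libraries and near white in the shRNA3 libraries.

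The main ER chaperones separated the hairpins. Hspa5, the HSP70 chaperone BiP, was at 994 and 982 FPKM in shRNA3, at 634 and 648 FPKM in shRNA1 and at 999 and 964 FPKM in WT. Both shRNA1 libraries lay below all others, and shRNA3 and WT overlapped. The shRNA1 mean was 65.3% of the WT mean, with a log2 change of -0.61 ± 0.04 (SE, limma adjusted p = 2.23e-05). With shRNA3 the log2 change was 0.01 (95% interval -0.08 to 0.10, limma adjusted p = 0.843). Set against each other directly, shRNA3 was 1.54-fold above shRNA1 (log2 difference 0.62 ± 0.04, limma adjusted p = 3.27e-05).

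Hsp90b1, the ER HSP90 known as GRP94, was at 594 and 593 FPKM in shRNA3, at 488 and 501 FPKM in shRNA1 and at 529 and 503 FPKM in WT. The shRNA3 libraries were above all others, and shRNA1 lay just below WT. It rose with shRNA3 (log2 change 0.20 ± 0.04, limma adjusted p = 0.00397) and was not called with shRNA1 (log2 change -0.06, 95% interval -0.16 to 0.03). After quantile normalization its change with shRNA3 was -0.01 (adjusted p = 0.847), and that of Hspa5 with shRNA3 was -0.15 (adjusted p = 0.0307), so the direction of both against WT depends on the scaling in shRNA3. The same normalization called Hsp90b1 lower with shRNA1 (-0.28, limma adjusted p = 0.00275). Both remained higher in shRNA3 than in shRNA1 under every alternative run. Within a library, the ratio of Hspa5 to Hsp90b1 was 1.67 and 1.66 in shRNA3, 1.30 and 1.29 in shRNA1 and 1.89 and 1.92 in WT. Hsp90b1 shares 415 exonic bases with 1810014B01Rik, at 2.18 to 3.51 FPKM, on the other strand.

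The exchange factors that recharge BiP with ATP moved in opposite directions. Hyou1, an HSP70-like exchange factor and chaperone, was at 29.8 and 31.5 FPKM in shRNA3, at 24.9 and 24.3 FPKM in shRNA1 and at 44.2 and 44.6 FPKM in WT. All 4 knockdown libraries were below both WT libraries, and shRNA1 was below shRNA3. It fell to 55.5% of the WT mean with shRNA1 (log2 change -0.82 ± 0.05, limma adjusted p = 1.69e-05) and to 69.1% with shRNA3 (-0.52 ± 0.05, limma adjusted p = 9.06e-05). Sil1, the other exchange factor, was at 32.3 and 35.3 FPKM in shRNA3, at 19.5 and 20.1 FPKM in shRNA1 and at 17.3 and 16.5 FPKM in WT. No library of one group overlapped those of another. Sil1 rose 2.002-fold with shRNA3 (log2 change 0.96 ± 0.06, limma adjusted p = 1.26e-05). With shRNA1 it was 1.17-fold WT (log2 change 0.22 ± 0.06, limma adjusted p = 0.0223), a call that ended without WT replicate 2, shRNA1 replicate 1 or shRNA1 replicate 2 (adjusted p 0.0620 to 0.108).

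The J proteins bring clients to BiP and trigger its ATPase. Dnajb11 (ERdj3) was at 45.8 and 46.1 FPKM in shRNA3, at 53.5 and 57.8 FPKM in shRNA1 and at 74.9 and 71.3 FPKM in WT. All knockdown libraries were below WT, and shRNA3 was the lowest, whereas for Hspa5 shRNA1 was the lowest. It fell by 0.66 on the log2 scale with shRNA3 (limma adjusted p = 3.9e-05) and by 0.39 with shRNA1 (limma adjusted p = 0.00102), and the hairpins differed by -0.27 ± 0.05 (limma adjusted p = 0.00455). Dnajb9 (ERdj4) averaged 15.1 ± 1.20 FPKM in shRNA3, 13.3 ± 0.878 in shRNA1 and 19.8 ± 1.05 in WT (SD, n = 2), and fell with shRNA3 (log2 change -0.37, limma adjusted p = 0.0039) and with shRNA1 (-0.55, limma adjusted p = 0.0012). Dnajc3 (P58IPK) averaged 13.6 ± 0.363 FPKM in shRNA3, 11.6 ± 0.625 in shRNA1 and 14.3 ± 0.163 in WT, and fell with shRNA1 (log2 change -0.29, limma adjusted p = 0.00799). That call ended without shRNA1 replicate 1 (adjusted p = 0.0532).

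Of the secreted and soluble cofactors, Manf, a stress-induced ER protein that is also secreted, averaged 72.5 ± 0.334 FPKM in shRNA3, 66.6 ± 4.29 in shRNA1 and 96.7 ± 1.05 in WT. It fell with shRNA3 (log2 change -0.41, limma adjusted p = 0.000345) and with shRNA1 (-0.53, limma adjusted p = 0.000192), and the hairpins were not called different (0.12, 95% interval 0.01 to 0.24, limma adjusted p = 0.0854). Sdf2l1, a partner of ERdj3, averaged 22.6 ± 0.781 FPKM in shRNA3, 17.97 ± 2.94 in shRNA1 and 24.4 ± 0.198 in WT. It fell with shRNA1 (log2 change -0.43 ± 0.09, limma adjusted p = 0.00952), and with shRNA3 its log2 change was -0.11 (95% interval -0.33 to 0.11). Of the 9 genes of this chaperone group, 7 fell and 1 rose with shRNA1, 4 fell and 2 rose with shRNA3, and 6 were higher and 1 lower with shRNA3 than with shRNA1. Among all genes, 18.4% fell and 17.6% rose with shRNA1, 27.8% fell and 27.4% rose with shRNA3, and 22% were higher and 20.5% lower between the hairpins. Their summed level was 1819 and 1811 FPKM in shRNA3, 1327 and 1363 FPKM in shRNA1 and 1821 and 1753 FPKM in WT, a sum in which Hspa5 is the largest term.

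**Figure D2:**
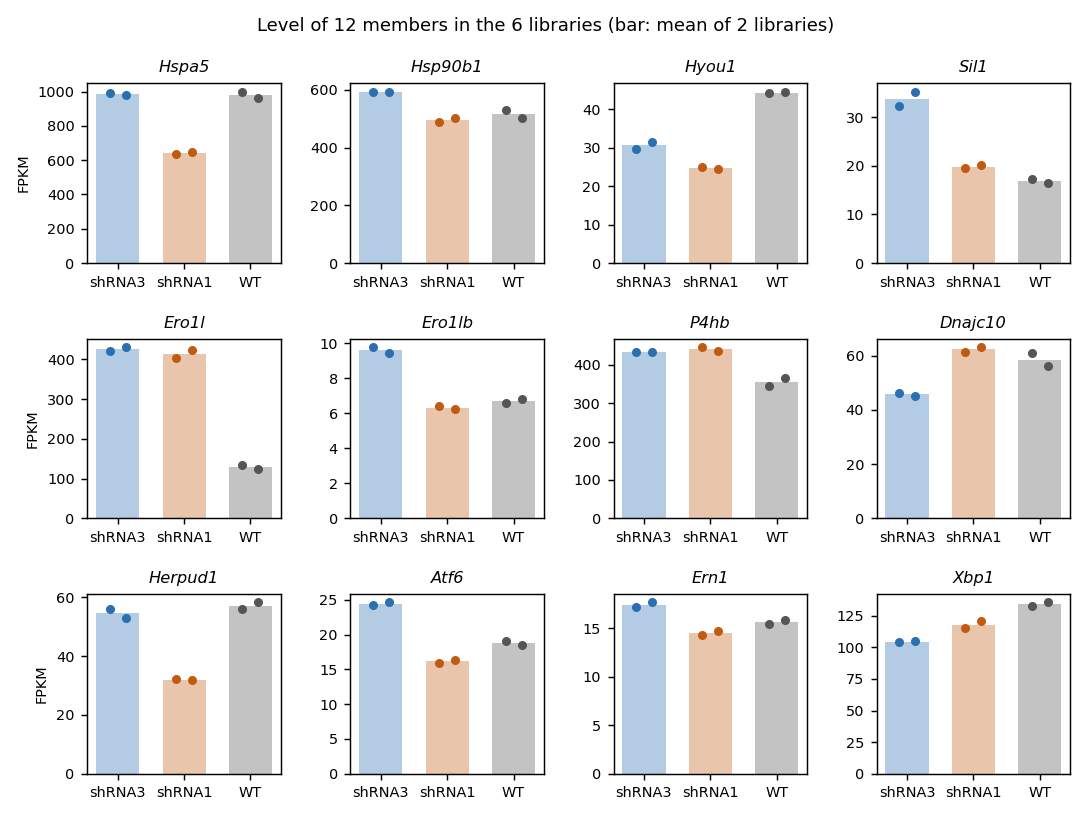
Level in FPKM (y axis, from 0) of 12 members in shRNA3, shRNA1 and WT; bars are means of 2 libraries and points the libraries. Hspa5 and Herpud1 are low in shRNA1 alone, Sil1, Ero1lb and Atf6 high in shRNA3 alone or nearly so, and Ero1l high with both hairpins.

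The lectin chaperones hold glycoproteins by their sugar chains until they fold. Calr (calreticulin), the most abundant of them, was at 223 and 218 FPKM in shRNA3, at 201 and 198 FPKM in shRNA1 and at 238 and 235 FPKM in WT. The 3 groups did not overlap. It fell with shRNA1 (log2 change -0.24 ± 0.04, limma adjusted p = 0.00208). The fall with shRNA3 (-0.10 ± 0.04, limma adjusted p = 0.048) ended without any 1 of the 6 libraries (adjusted p 0.0693 to 0.178). Canx (calnexin) averaged 185 ± 7.78 FPKM in shRNA3, 160.2 ± 4.08 in shRNA1 and 179 ± 4.41 in WT, and was called lower with shRNA1 (limma adjusted p = 0.0304), a call that ended without either WT or either shRNA1 library (adjusted p 0.0601 to 0.146). Uggt1, the enzyme that marks misfolded glycoproteins for another round of folding, averaged 42.6 ± 1.48 FPKM in shRNA3, 47.5 ± 1.06 in shRNA1 and 47.8 ± 1.59 in WT. It was lower with shRNA3 (log2 change -0.16, limma adjusted p = 0.0224), but not without WT replicate 1 or shRNA3 replicate 1 (adjusted p 0.119 and 0.123).

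Among the enzymes that make and rearrange disulfide bonds, the oxidase Ero1l (ERO1 alpha), which passes electrons from protein disulfide isomerase to oxygen, had the largest change of the 39 members tested. Ero1l (chromosome 14, 45283087 to 45318771, minus strand, GRCm38) was at 420.5 and 431 FPKM in shRNA3, at 405 and 424 FPKM in shRNA1 and at 134 and 125 FPKM in WT. All 4 knockdown libraries were far above both WT libraries. It rose 3.21-fold with shRNA1 (log2 change 1.67 ± 0.05, limma adjusted p = 7.3e-07) and 3.30-fold with shRNA3 (1.71 ± 0.05, limma adjusted p = 3.58e-07). The hairpins were not called different (log2 difference 0.04, 95% interval -0.07 to 0.15). Its homologue Ero1lb (ERO1 beta) was at 9.78 and 9.42 FPKM in shRNA3, at 6.396 and 6.25 FPKM in shRNA1 and at 6.59 and 6.82 FPKM in WT. The groups did not overlap, with shRNA3 highest and shRNA1 just below WT. Ero1lb rose with shRNA3 (log2 change 0.46 ± 0.06, limma adjusted p = 0.000632) and was not called with shRNA1 (-0.07, 95% interval -0.22 to 0.08). The difference between the hairpins was 0.53 ± 0.06 on the log2 scale (limma adjusted p = 0.000589). The pseudogene Gm18562 matches an Ero1lb transcript at 98.05% over 921 bases, and the treatment of reads shared by such copies is not stated in the labels.

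P4hb, the protein disulfide isomerase PDI and the main substrate of ERO1, was at 433 FPKM in both shRNA3 libraries, at 445 and 437 FPKM in shRNA1 and at 345 and 366 FPKM in WT. The 4 knockdown libraries were above both WT libraries. It rose to 122% of the WT mean with shRNA3 (log2 change 0.28 ± 0.04, limma adjusted p = 0.000752) and to 124% with shRNA1 (0.31 ± 0.04, limma adjusted p = 0.00102). Within a library, Ero1l per P4hb was 0.971 and 0.995 in shRNA3, 0.909 and 0.971 in shRNA1 and 0.387 and 0.341 in WT. P4hb was the single PDI family member among the 5 here that rose.

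The other PDI family members were called lower or not called. Pdia5 was at 12.3 and 12.6 FPKM in shRNA3, at 13.4 and 14.7 FPKM in shRNA1 and at 23.0 and 22.4 FPKM in WT. All 4 knockdown libraries lay below WT, with log2 changes of -0.82 ± 0.06 for shRNA3 (limma adjusted p = 2.81e-05) and -0.65 ± 0.06 for shRNA1 (limma adjusted p = 0.000158). Pdia3 (ERp57), the partner of calnexin and calreticulin, averaged 274 ± 10.9 FPKM in shRNA3, 319.6 ± 9.91 in shRNA1 and 349 ± 5.85 in WT. Pdia6 averaged 350.3 ± 6.28 FPKM in shRNA3, 389.6 ± 4.19 in shRNA1 and 416 ± 0.359 in WT. With shRNA3, Pdia3 fell by 0.35 (limma adjusted p = 0.00041) and Pdia6 by 0.25 (limma adjusted p = 0.000851) on the log2 scale. With shRNA1, Pdia3 (-0.13, limma adjusted p = 0.0591) and Pdia6 (-0.09, limma adjusted p = 0.0807) were not called. Quantile normalization (limma adjusted p = 0.00313 for Pdia3 and 0.0043 for Pdia6) and scaling to the same total (0.0109 and 0.0105) gave lower calls there. Pdia4 averaged 90.8 ± 4.94 FPKM in shRNA3, 90.1 ± 1.019 in shRNA1 and 105 ± 1.39 in WT. Its fall with shRNA3 was -0.21 (limma adjusted p = 0.00661), and that with shRNA1, -0.22 (limma adjusted p = 0.00937), ended without WT replicate 1 or shRNA1 replicate 1 (adjusted p 0.0512 and 0.0517).

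Dnajc10 (ERdj5), a J protein with thioredoxin domains that reduces disulfides of proteins bound for degradation, was at 46.4 and 45.2 FPKM in shRNA3, at 61.5 and 63.1 FPKM in shRNA1 and at 60.9 and 56.3 FPKM in WT. The shRNA3 libraries were the lowest and shRNA1 the highest. It fell with shRNA3 (log2 change -0.35 ± 0.05, limma adjusted p = 0.000771), was not called with shRNA1 (0.09, 95% interval -0.03 to 0.21), and had the largest negative difference between the hairpins among the 39 members (-0.44 ± 0.05, limma adjusted p = 0.000492). Creld2, an ER stress-inducible protein with disulfide isomerase activity, was at 26.3 and 25.4 FPKM in shRNA3, at 19.6 and 21.4 FPKM in shRNA1 and at 32.8 and 29.5 FPKM in WT. The groups did not overlap, with shRNA1 lowest. It fell with shRNA1 (log2 change -0.58 ± 0.07, limma adjusted p = 0.000487) and with shRNA3 (-0.26 ± 0.07, limma adjusted p = 0.0122), where the call ended without WT replicate 1 or shRNA3 replicate 2 (adjusted p 0.0807 and 0.0699).

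Of the thioredoxin-domain proteins, Txndc5 was not called in any comparison and averaged 120.3 ± 0.382 FPKM in shRNA3, 124 ± 0.156 in shRNA1 and 125 ± 2.58 in WT. Txndc11 averaged 10.6 ± 0.362 FPKM in shRNA3, 8.51 ± 0.167 in shRNA1 and 11.7 ± 2.15 in WT, and its WT libraries spread the most. Its call with shRNA1 (log2 change -0.41 ± 0.11, limma adjusted p = 0.0193) ended without WT replicate 2 or either shRNA1 library (adjusted p 0.0671 to 0.0841). Of the 11 disulfide enzymes, 4 fell and 2 rose with shRNA1, and 6 fell and 3 rose with shRNA3. The shares that rose are near those of all genes, 17.6% with shRNA1 and 27.4% with shRNA3. The shares that fell are above those of all genes, 18.4% with shRNA1 and 27.8% with shRNA3. Their summed level was 1803 and 1794 FPKM in shRNA3, 1878 and 1902 FPKM in shRNA1 and 1611 and 1610.3 FPKM in WT. Ero1l alone, at 405 to 431 FPKM in the knockdown libraries and 125 to 134 FPKM in WT, accounts for the higher sums. They do not show a rise of the group.

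**Figure D3:**
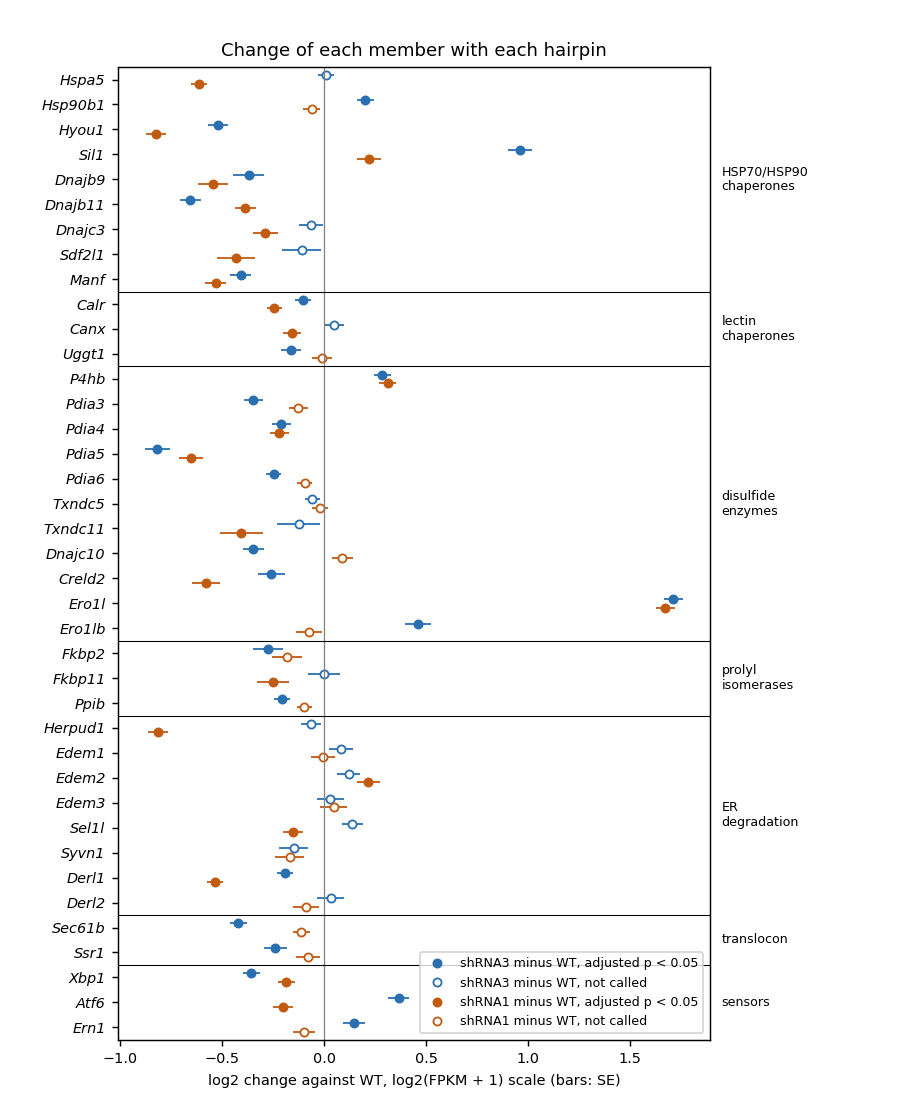
Log2 change of 39 members against WT (x axis, log2(FPKM + 1) scale) for shRNA3 (blue) and shRNA1 (orange); bars are standard errors, filled points have an adjusted p under 0.05 and open points do not. Ero1l lies near 1.7 with both hairpins, while Hspa5, Herpud1, Sil1 and Atf6 show the points of the hairpins far apart.

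The prolyl isomerases turn peptide bonds before proline. Ppib (cyclophilin B), the most abundant of them, was at 291 and 284 FPKM in shRNA3, at 312 and 307 FPKM in shRNA1 and at 334 and 329 FPKM in WT. The groups did not overlap. It fell with shRNA3 (log2 change -0.21 ± 0.04, limma adjusted p = 0.00224) and was not called with shRNA1 (-0.10, limma adjusted p = 0.0766). Quantile normalization (limma adjusted p = 0.00471) and scaling to the same total (limma adjusted p = 0.0119) gave a lower call with shRNA1. Ppib shares 825 exonic bases with Snx22 on the other strand, at 45.4 to 51.7 FPKM, and the labels do not state if the authors kept the strands apart when quantifying. Fkbp2 was at 50.8 and 58.2 FPKM in shRNA3, at 55.4 and 60.9 FPKM in shRNA1 and at 64.4 and 67.9 FPKM in WT. The knockdown libraries were all below WT and overlapped each other. Its fall with shRNA3 (log2 change -0.28 ± 0.07, limma adjusted p = 0.0135) ended without WT replicate 2 or shRNA3 replicate 1 (adjusted p 0.0725 and 0.0881). Fkbp11 averaged 54.2 ± 0.255 FPKM in shRNA3, 45.7 ± 5.72 in shRNA1 and 54.3 ± 2.72 in WT, and its call with shRNA1 (-0.25, limma adjusted p = 0.0405) ended without either WT library, shRNA1 replicate 2 or either shRNA3 library (adjusted p 0.0642 to 0.191).

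Among the ER degradation genes, Herpud1 and Derl1 changed most. Herpud1, a membrane protein that organizes the HRD1 ubiquitin ligase and is strongly induced by ER stress, was at 56.1 and 53.1 FPKM in shRNA3, at 32.3 and 31.7 FPKM in shRNA1 and at 56.1 and 58.2 FPKM in WT. Only the shRNA1 libraries were low, and shRNA3 lay just below WT. It fell to 56.0% of the WT mean with shRNA1 (log2 change -0.82 ± 0.05, limma adjusted p = 1.63e-05), and with shRNA3 the log2 change was -0.07 (95% interval -0.18 to 0.05). The difference between the hairpins, 0.75 ± 0.05 on the log2 scale, was the largest among the 39 members (limma adjusted p = 3.73e-05).

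Derl1, which helps move misfolded proteins across the ER membrane and was the most abundant of this group, was at 86.2 and 88.0 FPKM in shRNA3, at 69.5 and 67.4 FPKM in shRNA1 and at 99.6 and 99.7 FPKM in WT. The groups did not overlap, and shRNA1 was the lowest. It fell with shRNA3 (log2 change -0.19 ± 0.04, limma adjusted p = 0.00482) and with shRNA1 (-0.54 ± 0.04, limma adjusted p = 6.22e-05), and was higher with shRNA3 than with shRNA1 (0.34 ± 0.04, limma adjusted p = 0.000539). The pseudogene Gm35638 matches a Derl1 transcript at 95.4% over 652 bases. Edem2, which trims mannose from glycoproteins bound for degradation, was at 43.4 and 39.8 FPKM in shRNA3, at 44.1 and 45.1 FPKM in shRNA1 and at 37.2 and 39.2 FPKM in WT. All knockdown libraries were above WT. It rose with shRNA1 (log2 change 0.22 ± 0.06, limma adjusted p = 0.0185), a call that ended without WT replicate 1 or either shRNA1 library (adjusted p 0.0578 to 0.0994), and was not called with shRNA3 (0.12, limma adjusted p = 0.102).

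Sel1l, the adaptor of the HRD1 ligase, averaged 26.3 ± 1.18 FPKM in shRNA3, 21.3 ± 0.0629 in shRNA1 and 23.8 ± 0.0262 in WT. It was higher with shRNA3 than with shRNA1 (log2 difference 0.29 ± 0.05, limma adjusted p = 0.00324). Its call against WT with shRNA1 (-0.15, limma adjusted p = 0.0497) ended without any 1 of the 6 libraries (adjusted p 0.0546 to 0.149), and with shRNA3 it was not called (0.14, limma adjusted p = 0.052). The ligase gene Syvn1 (HRD1) averaged 19.7 ± 2.19 FPKM in shRNA3, 19.4 ± 0.156 in shRNA1 and 21.9 ± 0.228 in WT. Syvn1, Edem1, Edem3 and Derl2 were called in none of the comparisons, with log2 changes against WT between -0.17 for Syvn1 and 0.08 for Edem1. All knockdown libraries lay below WT for Syvn1. Scaling to the same total called Syvn1 lower with shRNA1 (limma adjusted p = 0.0288), with shRNA3 (limma adjusted p = 0.0213) and over both (limma adjusted p = 0.0115). Of the 8 tested degradation genes, 3 fell and 1 rose with shRNA1, 1, Derl1, fell with shRNA3, and 3 were higher with shRNA3 than with shRNA1. Among all genes 18.4% were lower and 17.6% higher with shRNA1, and 27.8% were lower with shRNA3. Between the hairpins 22% of all genes were higher with shRNA3. The 1 that rose with shRNA1 and the 1 that fell with shRNA3 are no larger a share than among all genes. The 3 that fell with shRNA1 and the 3 higher between the hairpins are a larger share.

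Both translocon subunits were called lower with shRNA3. Sec61b, a subunit of the Sec61 channel, was at 141 and 143 FPKM in shRNA3, at 174 and 179 FPKM in shRNA1 and at 187 and 194 FPKM in WT. The shRNA3 libraries were the lowest, and shRNA1 also lay below WT. It fell with shRNA3 (log2 change -0.42 ± 0.04, limma adjusted p = 0.000101) and was not called with shRNA1 (-0.11, limma adjusted p = 0.0631), where quantile normalization (adjusted p = 0.0186) and scaling to the same total (adjusted p = 0.0178) gave a lower call. The difference between them was -0.31 ± 0.04 (limma adjusted p = 0.000853). Sec61b has a near-identical annotated copy, Gm10320, at 98.3% over 474 bases. Ssr1, a subunit of the translocon-associated protein complex, was at 23.2 and 22.1 FPKM in shRNA3, at 24.8 and 26.1 FPKM in shRNA1 and at 27.8 and 26.1 FPKM in WT. The shRNA1 libraries overlapped WT and the shRNA3 libraries did not. Its fall with shRNA3 (-0.24 ± 0.06, limma adjusted p = 0.00845) ended without WT replicate 1 or shRNA3 replicate 2 (adjusted p 0.0577 and 0.0580), and the hairpins were not called different (-0.16, 95% interval -0.29 to -0.03, limma adjusted p = 0.0546).

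The sensors did not move together. Atf6, the membrane-bound transcription factor that is cut in the Golgi to act in the nucleus, was at 24.3 and 24.6 FPKM in shRNA3, at 15.97 and 16.4 FPKM in shRNA1 and at 19.1 and 18.5 FPKM in WT. The shRNA3 libraries were the highest and the shRNA1 libraries the lowest. Atf6 rose with shRNA3 (log2 change 0.36 ± 0.05, limma adjusted p = 0.000604), and the hairpins differed by 0.57 ± 0.05 (limma adjusted p = 0.000156). Its fall with shRNA1 (-0.20 ± 0.05, limma adjusted p = 0.0171) ended without WT replicate 1 or either shRNA1 library (adjusted p 0.0509 to 0.0887). Ern1, the kinase and endoribonuclease IRE1 alpha that splices Xbp1 mRNA, was at 17.1 and 17.6 FPKM in shRNA3, at 14.3 and 14.7 FPKM in shRNA1 and at 15.4 and 15.8 FPKM in WT. The groups did not overlap, in the same order as for Atf6. The hairpins differed by 0.25 ± 0.05 (limma adjusted p = 0.00746), the call against WT with shRNA3 (0.15, limma adjusted p = 0.045) ended without any 1 of the 6 libraries (adjusted p 0.0616 to 0.171), and shRNA1 was not called (-0.10, 95% interval -0.22 to 0.02).

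Xbp1, the target of IRE1, was at 104 and 105 FPKM in shRNA3, at 115 and 121 FPKM in shRNA1 and at 133 and 136 FPKM in WT. All knockdown libraries lay below WT, and shRNA3 was the lowest. It fell with shRNA3 (log2 change -0.36 ± 0.04, limma adjusted p = 0.000249), and the fall with shRNA1 (-0.19 ± 0.04, limma adjusted p = 0.0108) ended without WT replicate 2 or shRNA1 replicate 1 (adjusted p 0.0580 and 0.0686). The tables give 1 value per gene, so spliced and unspliced Xbp1 were not separated. Within a library, Atf6 per Xbp1 was 0.234 and 0.235 in shRNA3, 0.139 and 0.136 in shRNA1 and 0.144 and 0.136 in WT.

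Set beside the promoter windows shown above, 11 tested members had ERSE or ERSE-II. With shRNA3 against shRNA1, 8 of these 11 were higher (Herpud1, Hspa5, Ero1lb, Creld2, Hsp90b1, Dnajc3, Canx and Calr), 2 were lower (Pdia6 and Dnajb11) and Syvn1 was not called, with a median log2 difference of 0.22, where 22% of all genes were called higher and 20.5% lower. Of the 23 members with a window and neither element, 4 were higher, 6 lower and 13 not called, shares near those of all genes, with a median of -0.03. Of the 5 without a window, 4 were higher. Against WT, 7 of the 11 fell with shRNA1, and 4 fell and 2 rose with shRNA3. Of the 23 with neither element, 8 fell and 3 rose with shRNA1, and 11 fell and 3 rose with shRNA3. Among all genes, 18.4% fell and 17.6% rose with shRNA1, and 27.8% fell and 27.4% rose with shRNA3. The share that fell was thus larger with an element for shRNA1 and larger without one for shRNA3. Without single libraries, the calls between the hairpins ended for Calr and Canx (adjusted p 0.0549 to 0.0923), for Dnajc3 (0.0955 to 0.110) and for Pdia6 (0.0587 to 0.0705). These counts are descriptions of a small group of genes, and the division was not tested.

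**Figure D4:**
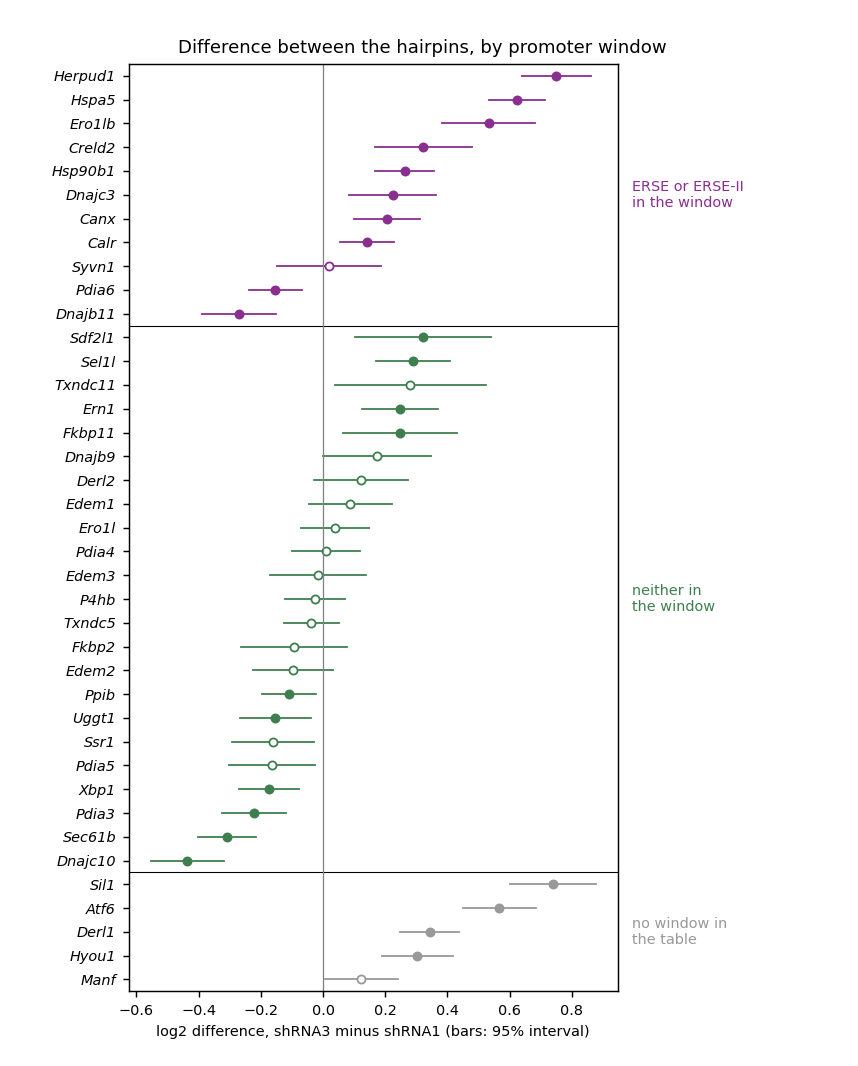
Log2 difference between shRNA3 and shRNA1 (x axis) for 39 members, split by whether the promoter window holds ERSE or ERSE-II (purple), neither (green) or was missing from the table (grey); bars are 95% intervals and filled points have an adjusted p under 0.05. Of the 11 members with an element 8 lie to the right of 0 with filled points, and Dnajb11 and Pdia6 lie to the left.

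Other genes of the pathway were followed in 6 further lists, whose counts over both hairpins stand beside 25.9% lower and 24.1% higher among all genes. Of 7 genes of the PERK branch, 6 fell over both hairpins and Eif2ak3 was not called, with a median log2 change of -0.85. The count of 6 lower held under every alternative but the fit of 4 knockdown libraries as 1 group, which gave 4. With shRNA1, 6 fell (median -0.89), and with shRNA3, 5 fell and 1 rose (median -0.38). Among all genes 18.4% fell with shRNA1, and 27.8% fell and 27.4% rose with shRNA3. Atf4, the transcription factor translated when PERK is active, was at 205 and 195 FPKM in shRNA3, at 209 and 206 FPKM in shRNA1 and at 385 and 387 FPKM in WT (log2 change over both -0.92, limma adjusted p = 1.51e-06). Its targets Trib3, a pseudokinase, and Chac1, an enzyme that breaks down glutathione, had log2 changes over both of -1.71 and -0.99 (limma adjusted p = 2.88e-07 and 4.4e-05). Ddit3 (CHOP) and Eif2ak3 (PERK itself) are named after their values were seen. Ddit3 was at 104 and 93.3 FPKM in shRNA3, at 34.7 and 31.4 FPKM in shRNA1 and at 102 and 105 FPKM in WT. It was low in the shRNA1 libraries alone, and shRNA3 overlapped WT (log2 difference between the hairpins 1.55 ± 0.07, limma adjusted p = 8.43e-06). Eif2ak3 was at 10.3 and 10.001 FPKM in shRNA3, at 8.28 and 8.16 FPKM in shRNA1 and at 8.23 and 8.30 FPKM in WT, and rose with shRNA3 (log2 change 0.26 ± 0.06, limma adjusted p = 0.00648). With shRNA3 against shRNA1, 6 of the 7 PERK branch genes were called higher, where 22% of all genes were. Fewer of them were called without shRNA1 replicate 1 or shRNA3 replicate 2, fits that also called fewer of all genes.

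Among 7 tested of 9 other regulators of the response, 4 fell and 1 rose over both hairpins. The 3 with the largest changes were Atf6b, the homologue of Atf6, at -0.58, the protease gene Mbtps2, whose product releases ATF6, at -0.27, and Wfs1, an ER membrane protein, at -0.25 on the log2 scale (limma adjusted p = 0.00093, 0.0154 and 0.018). Of 13 tested of 17 other ER chaperones and isomerases, 5 fell, led by Cnpy2 (-0.64), Serpinh1, the collagen chaperone HSP47 (-0.36), and Cnpy3 (-0.31). Of 13 tested of 15 other thiol and redox enzymes, 3 rose and 2 fell, no larger a share than among all genes, and the oxidase Qsox1, the peroxidase Gpx8 and the thioredoxin-like Tmx4 rose by 0.21, 0.21 and 0.29. Of 24 tested of 25 other ER degradation genes, 9 fell and 3 rose, with Ubxn8 (-0.57) and the glycanase Ngly1 (-0.50) changed most. Of 27 genes for the translocon, signal peptidase and N-glycosylation, 14 fell and 3 rose, among them the channel subunit Sec61a1 (-0.46), the oligosaccharyltransferase subunit Rpn1 (-0.41) and Tram2 (0.45), which was called higher. The median log2 change over both hairpins lay between -0.22 and -0.09 in these 5 lists, beside -0.01 for all genes. The calls of Mbtps2 and Wfs1 ended without either WT library (adjusted p 0.0521 to 0.118), that of Qsox1 without WT replicate 1 (adjusted p = 0.0597) and that of Gpx8 without WT replicate 2 (adjusted p = 0.0535). Counts of several lists were smaller with a single library left out, and so were the counts of all genes called over both hairpins. The lists were the other regulators, the other degradation genes, the thiol enzymes and the translocon and glycosylation genes. The call of the 1 other regulator that rose ended with any library left out but WT replicate 2.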

How the data were processed

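RNA was measured by sequencing in 6 libraries of 4T1 cells, 2 per group, with a column RNA kit and a stranded mRNA library kit, per the labels' protocols. The submitters' processing notes name TopHat2 2.0.13, Bowtie2 2.2.3, SAMtools 0.1.19, Cufflinks 2.2.1 and the mm10 build, without their roles. The deposited tables hold 1 value per gene symbol and library and do not write its unit. It is taken here as the FPKM that the authors' tools produce, since the values are not whole numbers and their totals differ between libraries. The sources used here do not give the gene annotation, how strand was handled or what became of reads with several matches, and no count of reads was used, so the absolute depth behind a value is unknown.

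Values were tested as log2(FPKM + 1) for the 11079 genes that averaged 1 FPKM or more across the 6 libraries. A model of 3 group means was fitted with limma 3.58.1 (R 4.3.3) with the prior variance following mean expression, 3 residual and 4.96 prior degrees of freedom, and 4 contrasts: shRNA3 against shRNA1, shRNA3 against WT, shRNA1 against WT, and the average of the hairpins against WT. Tests were two-sided, and a gene was called at a Benjamini-Hochberg adjusted p under 0.05 over all genes tested. The fit was tested on simulated data.

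The members and lists were chosen with earlier results of these data known. Members were given library by library when they were among the 3 largest called changes of their role group, among the 8 largest called differences between the hairpins, the most abundant of their group, a sensor, or Hspa5, Hsp90b1 or Herpud1. In other lists the 3 largest called changes were named, except 1 gene that is not reported here. Ddit3 and Eif2ak3 were added after their values were seen.

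Promoter windows came from a RefSeq table on GRCm38.p6, which held 35 of the 40 members, and coordinates and overlaps from an annotation of GRCm38. Near-identical copies were sought with blastn 2.17.0 (at least 95% identity over at least 200 bases). Tables and figures were made with Python 3.11.15, pandas 2.3.3, NumPy 2.4.6 and matplotlib 3.10.9. The alternatives were other pseudocounts and filters, 3 other scalings, a fit without the variance trend, a replicate block, the 4 knockdown libraries as 1 group, and each library left out in turn.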

Additional observations from a re-analysis of the deposited data

Results flagged for a closer look

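The change against WT differed between the hairpins for 24 of the 39 members, by limma's test of shRNA3 against shRNA1 itself (Benjamini-Hochberg adjusted p under 0.05), where 22% of all genes were called higher and 20.5% lower. All values that follow are log2 differences, shRNA3 minus shRNA1.

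Among the chaperones and their cofactors, shRNA3 was higher for Sil1 (0.74), Hspa5 (0.62), Sdf2l1 (0.32), Hyou1 (0.30), Hsp90b1 (0.26) and Dnajc3 (0.22), and lower for Dnajb11 (-0.27). Of the lectin chaperones and the glycoprotein sensor, Canx (0.21) and Calr (0.14) were higher and Uggt1 (-0.15) was lower. Of the disulfide enzymes, Ero1lb (0.53) and Creld2 (0.32) were higher, and Dnajc10 (-0.44), Pdia3 (-0.22) and Pdia6 (-0.15) lower. Fkbp11 (0.25) was higher and Ppib (-0.11) lower among the prolyl isomerases. The degradation genes Herpud1 (0.75), Derl1 (0.34) and Sel1l (0.29) and the sensors Atf6 (0.57) and Ern1 (0.25) were higher, and Sec61b (-0.31) and Xbp1 (-0.17) lower.

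These calls held under 15 alternatives for 11 of the 16 higher and 4 of the 8 lower members. The call of Ppib ended without any 1 of the 6 libraries (adjusted p 0.0702 to 0.180), and that of Uggt1 without any 1 of the 4 knockdown libraries (0.0587 to 0.176). Calls also ended for Calr without either shRNA1 library or shRNA3 replicate 1 (0.0567 to 0.0923). For Fkbp11 (0.117 to 0.182) and Sdf2l1 (0.0722 to 0.127) they ended without shRNA1 replicate 2 or either shRNA3 library. Without shRNA1 replicate 1 or shRNA3 replicate 2, the calls of Canx (0.0549 to 0.0570), Dnajc3 (0.0955 to 0.110) and Pdia6 (0.0587 to 0.0705) ended, and without shRNA1 replicate 2 or shRNA3 replicate 1 that of Xbp1 (0.0557 to 0.0774). The summed epithelial markers were 747 to 749.8 FPKM in shRNA3 and 1041 to 1110 FPKM in shRNA1, and their part in these differences was not tested.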

How the results depend on the processing

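Over both hairpins, 15 of the 22 lower and 3 of the 5 higher members kept their call under the 15 alternatives other than a joint fit of the knockdown libraries, and Dnajc10, Dnajc3, Fkbp2, Ppib, Sdf2l1, Ssr1, Txndc11, Edem2 and Ero1lb did not. With the 4 knockdown libraries as 1 group, the lower calls numbered 5 and the higher calls 2, against 715 and 798 among all 11079 genes. Scaling to the same total left 3 higher, with 26 lower, against 1944 and 3723 of all genes. It moved the median of all genes to -0.07 (log2), and the share of higher calls among all calls to 34.3% (48.2% as deposited) over both hairpins, 34.9% (49.0%) with shRNA1 and 37.6% (49.7%) with shRNA3. With single libraries left out, members called higher over both hairpins ranged between 3 and 5 (5 with all libraries), lower with shRNA1 between 12 and 18 (19), higher with shRNA1 between 2 and 4 (4), and lower with shRNA3 than with shRNA1 between 5 and 7 (8). Fewer of all genes were also called, lower and higher, in every comparison, whichever library was left out. The smaller counts are therefore not particular to the members. Under quantile normalization 3 values turned round: Hsp90b1 over both hairpins was -0.14 (adjusted p = 0.0173, against 0.07 and not called), Hsp90b1 with shRNA3 -0.011 (adjusted p = 0.847, against 0.20) and Hspa5 with shRNA3 -0.15 (adjusted p = 0.0307, against 0.01 and not called), and the cause was not tested. Of the members' values recomputed, 2140 kept their direction and side of the threshold, 166 lost and 36 gained a call, and 34 changed sign without a call either way.

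Libraries of different groups share replicate numbers, but the deviations of same-numbered libraries correlated at 0.0103 (shRNA1 and WT), -0.0719 (shRNA3 and WT) and 0.199 (shRNA3 and shRNA1) over 11079 genes, so the numbers were not taken to pair them. With the replicate block, 21 members were lower and 5 higher over both hairpins, against 2706 and 2499 of all 11079 genes. With shRNA1, 18 members were lower and 4 higher, against 1774 and 1749 of all genes. With shRNA3, 17 were lower and 6 higher, against 2925 and 2872. Between the hairpins, 6 members were lower and 17 higher with shRNA3 than with shRNA1, against 2099 and 2209 of all genes.

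With 2 libraries per group, each library left out leaves its group with 1, which is assumed to vary like the other groups. Low genes are limited by the pseudocount, and read counts were not used.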
